A study of Mus musculus with 8 samples.

Results

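Genes for the 2 steps that join an aromatic or medium-chain acid to coenzyme A and then to glycine were followed in mouse liver RNA. They were chosen by name and comprise 4 acyl-CoA ligases (Acsm1, Acsm2, Acsm3 and Acsm5) and 3 glycine N-acyltransferases (Glyat, Gm4952 and Keg1), which is 7 of the 35975 genes with a transcript in the deposited table. Their 42 transcripts, among 119414 listed, were summed per gene. The mice were C57BL/6 by the labels and C57BL/6J by the methods of the study, 8 to 10 weeks old when purchased, single-housed after surgery and cannulated in the portal vein. In 4 mice an osmotic pump delivered 4-hydroxyphenylacetic acid (4-HPAA, a phenolic acid made by gut microbes) at 55 mM in normal saline and 0.25 µL per hour for 2 weeks, and in the other 4 it delivered normal saline alone, so both groups carry the surgery, the catheter and the saline. Liver RNA of each mouse was sequenced, and mice without surgery were not analysed here.

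Conjugation with glycine takes place in the mitochondrial matrix. A ligase of the Acsm family first couples the acid to coenzyme A at the expense of ATP, and a glycine N-acyltransferase then moves the acyl group onto glycine, releasing coenzyme A and a conjugate that the kidney excretes. Benzoate is turned into hippurate and salicylate into salicylurate by this route. In the mouse, phenylacetic acids are likewise conjugated with glycine. The comparison asks whether 2 weeks of portal 4-HPAA went with another level of the transcripts of these enzymes.

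Both sets of genes are arranged in clusters (GRCm38, all on the plus strand). On chromosome 7 stand Acsm5 (chr7:119519463-119545551), Acsm2 (chr7:119554340-119600690), Acsm1 (chr7:119607026-119662515) and Acsm3 (chr7:119760923-119787513). On chromosome 19 stand Gm4952 (chr19:12599974-12628251), Glyat (chr19:12633308-12653911) and Keg1 (chr19:12695786-12719902). Coding regions of the ligases ran from 1722 to 1743 bases and were between 61.1% and 65.2% identical over aligned bases in each pair. Those of the acyltransferases ran from 888 to 891 bases and were between 72.3% and 75.4% identical, the closest pair being Glyat and Gm4952.

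Because the acyltransferases resemble each other, the stretch of their coding regions that holds the longest run shared by Keg1 and Gm4952 is shown, 90 bases from the end of exon 2 and the start of exon 3, read 5′ to 3′ from the GENCODE M21 transcripts. Capitals mark the 72 bases that are identical in all 3 genes.
Keg1 (chr19:12709645-12711029, an intron between): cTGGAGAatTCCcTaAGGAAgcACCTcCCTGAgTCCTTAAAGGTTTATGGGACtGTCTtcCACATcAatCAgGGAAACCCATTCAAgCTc
Gm4952 (chr19:12613520-12618373, an intron between): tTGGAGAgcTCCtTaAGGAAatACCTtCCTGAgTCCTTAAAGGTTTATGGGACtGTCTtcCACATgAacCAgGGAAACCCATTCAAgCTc
Glyat (chr19:12639825-12646350, an intron between): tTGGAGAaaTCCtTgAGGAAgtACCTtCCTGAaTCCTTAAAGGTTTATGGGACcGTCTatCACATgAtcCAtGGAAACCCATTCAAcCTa
The longest run without a difference between Keg1 and Gm4952 was 38 bases (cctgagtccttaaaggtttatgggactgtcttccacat). Of the 2251 different 31-base words in the transcripts of Gm4952, 8 also occur in Keg1 and none in any other gene, so the 2 genes were separable almost everywhere by a program that matches words of this length. Acsm1 shared 0 of 2178 such words with any other gene.

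The total estimated count per library lay between 29559978 and 30673398, and 12883 genes reached 10 counts or more in all 8 libraries, which was the condition for testing. Hepatocyte markers (8 of 8 at 1 CPM or more, CPM being counts scaled to a common library total) summed to between 102650 and 133109 CPM. Kidney proximal tubule markers, included because Keg1 is named for its expression in kidney, summed to between 0.641 and 1.64 CPM with Kap at 0 in every library. Red blood cell markers summed to 2560 CPM in normal saline replicate 2 and to 734 CPM in 4-HPAA replicate 4, against 152 to 376 CPM in the other 6 libraries. The Y-linked genes Ddx3y, Uty, Kdm5d and Eif2s3y together summed to between 152 and 180 CPM with normal saline. With 4-HPAA they summed to between 158 and 169 CPM, so every liver was male by these genes. The summed markers of the groups overlapped for every list. Since whole tissue was sequenced, fewer cells of a type and less RNA per cell cannot be told apart.

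Transcripts of all annotated types, coding or not, summed to like levels for the step that makes the CoA ester and the step that uses it. Sums of coding forms alone are not given, so like levels are not shown for the forms that encode the enzymes. The short non-coding Glyat-203 held 965 mean saline counts over 690 bases, against 5269 over 2822 bases for the coding Glyat-201. Estimated counts were divided by annotated transcript length and scaled to one fixed total per library (TPM), which allows levels of different genes to be compared. In this unit the ligases summed to between 409 and 485 TPM with normal saline and between 394 and 475 TPM with 4-HPAA. The acyltransferases summed to between 347 and 470 TPM with normal saline and between 426 and 466 TPM with 4-HPAA.

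Acsm1, a medium-chain ligase that accepts benzoate, was the most abundant member, at 275 ± 21.1 TPM with normal saline and 258 ± 16.6 TPM with 4-HPAA (mean ± SD, n = 4 per group, as in the values that follow). It ranked 438 among the 12883 genes tested. Glyat, the glycine acyltransferase of classical benzoate conjugation, followed at 215 ± 18.6 and 230 ± 8.99 TPM (rank 522). Keg1, a Glyat-like gene, stood at 136 ± 35.8 and 146 ± 4.68 TPM (rank 764). The Glyat value includes the short non-coding forms Glyat-203 (690 bases) and Glyat-205 (803 bases), which weigh more in TPM than in counts. Of the main coding forms, Keg1-201 (mean 3825 saline counts over 1676 bases) stood above Glyat-201 (5269 over 2822 bases) per base. The place of Glyat above Keg1 therefore holds for all forms together and not for these coding forms.

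Acsm5 stood at 91.3 ± 11.6 and 90.3 ± 14.8 TPM (rank 1095), and Acsm3, a ligase of short and medium-chain acids, at 86.6 ± 8.53 and 88.3 ± 4.72 TPM (rank 1129). Gm4952, the neighbour of Glyat, was lowest of the acyltransferases at 61.7 ± 4.82 and 64.6 ± 6.75 TPM (rank 1475). Acsm2 was barely present, at 0.726 ± 0.303 and 0.745 ± 0.366 TPM (rank 11755), with between 30 and 91 counts per library. Within each of the 8 libraries this order, in TPM over all forms, held for every pair of neighbours but Acsm5 and Acsm3. Acsm5 exceeded Acsm3 in 6 of 8 libraries, and those 2 genes could not be ordered beyond their spread. Across libraries, the lowest Acsm1 value (238 TPM) lay below the highest Glyat value (240.5 TPM), and Keg1 reached below Acsm5 in the same way.

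**Figure D1:**
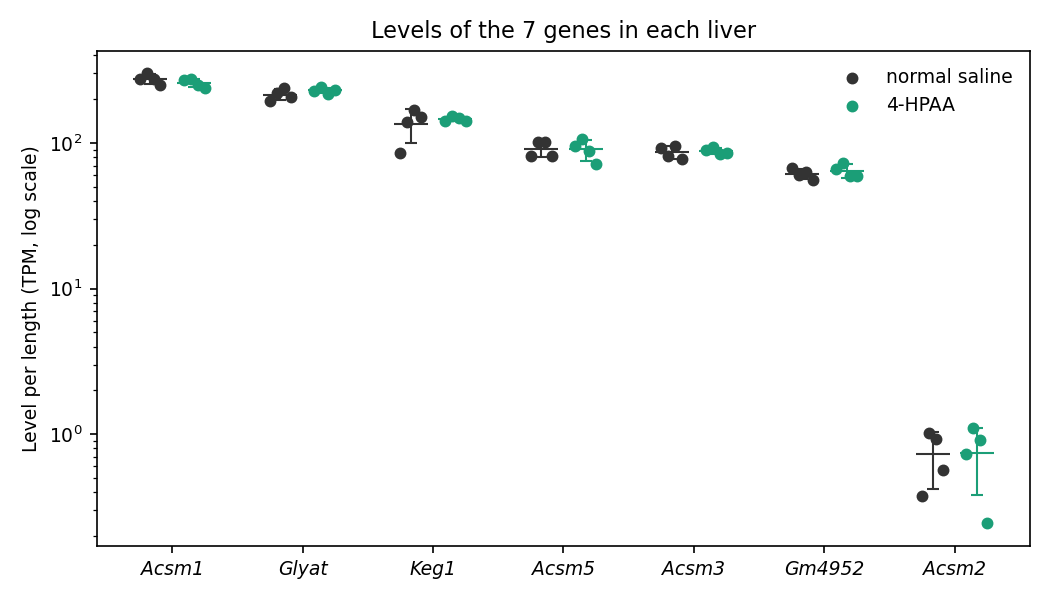
Level per length (TPM, log scale) of the 7 genes, all transcript types summed, in order of their mean. Points are single livers (4 per group), horizontal marks are group means and vertical bars 1 SD. The 6 genes from Acsm1 to Gm4952 sit between 55.6 and 301 TPM, Acsm2 sits near 1 TPM or below, and the groups overlap for every gene.

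None of the 7 genes passed the test between the groups. For the comparison, counts were scaled with TMM factors and given as CPM, and tested by the quasi-likelihood method of edgeR, with p-values adjusted over all genes after Benjamini and Hochberg. Of the 12883 genes tested, 0 passed at an adjusted p under 0.05 (0.0%), 225 had an unadjusted p under 0.05 (1.75%), and DESeq2 passed 2 of 12868 (0.0155%), Zfp36l2 and Ggnbp1, neither of them a member. Of the members, 0 of 7 passed by either tool, 0 of 7 had an unadjusted p under 0.05, and 0 of 7 had groups that did not overlap, against 154 genes (1.2%) over the whole table. The adjusted p of edgeR was 1.00 for each member. Acsm3, Glyat, Gm4952 and Keg1 had log2 fold changes above 0 and Acsm1, Acsm2 and Acsm5 below 0, where 50.4% of all genes were above 0. The median absolute log2 fold change was 0.068 over the members and 0.070 over all genes tested.

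Among the ligases, Acsm1 read 335.3, 391.9, 347.9 and 322.6 CPM in normal saline replicates 1 to 4 and 360.6, 337.9, 312.0 and 311.8 CPM in 4-HPAA replicates 1 to 4. The highest liver was a saline one and the lowest were 4-HPAA livers, but the remaining values of the groups were interspersed. The log2 fold change was -0.08 (SE 0.09), a fold of 0.946 with a 95% interval from 0.824 to 1.09.

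Acsm3 read 130.9, 122.5, 141.5 and 114.2 CPM with normal saline and 138.4, 138.0, 125.0 and 129.9 CPM with 4-HPAA. All 4-HPAA livers lay within the range of the saline livers. The log2 fold change was 0.06 (SE 0.08), a fold of 1.04 with a 95% interval from 0.918 to 1.19.

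Acsm5, a mitochondrial ligase of the same family, read 124.9, 172.2, 162.3 and 136.4 CPM with normal saline and 165.0, 168.3, 137.9 and 121.4 CPM with 4-HPAA. Each group held 2 livers above 160 CPM and 2 below 140 CPM. The log2 fold change was -0.01 (SE 0.13), a fold of 0.994 with a 95% interval from 0.807 to 1.22, and its sign turned with any of 4 single livers left out. Acsm2, a ligase known from kidney, read 1.25, 3.12, 2.46 and 1.86 CPM with normal saline and 2.30, 2.23, 2.56 and 1.05 CPM with 4-HPAA. Its interval was the widest of the members, from 0.567 to 1.56 as a fold, around a log2 fold change of -0.09 (SE 0.33). Its log2 fold change was 0.13 without normal saline replicate 2 and 0.12 without 4-HPAA replicate 4, so its direction rested on single livers.

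Among the acyltransferases, Glyat read 204.9, 250.7, 258.8 and 250.2 CPM with normal saline and 265.2, 248.0, 236.4 and 261.2 CPM with 4-HPAA. The first saline liver was the lowest of all 8 and the others mixed. The log2 fold change was 0.07 (SE 0.09), a fold of 1.05 with a 95% interval from 0.910 to 1.21, and it was -0.003 without normal saline replicate 1.

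Keg1 read 82.3, 148.2, 169.0 and 155.4 CPM with normal saline and 153.2, 149.1, 149.1 and 150.5 CPM with 4-HPAA. The same saline liver stood far below the rest, while the 4-HPAA livers lay within 5 CPM of each other, a coefficient of variation of 1.30% against 27.8% with normal saline. The log2 fold change was 0.12 (SE 0.19), a fold of 1.09 with a 95% interval from 0.815 to 1.44, and -0.07 without normal saline replicate 1. Gm4952 read 64.9, 60.2, 62.5 and 58.6 CPM with normal saline and 68.7, 66.6, 59.7 and 63.1 CPM with 4-HPAA, and its first saline liver was the highest of the saline group. Its log2 fold change was 0.07 (SE 0.07), a fold of 1.05 with a 95% interval from 0.939 to 1.17.

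**Figure D2:**
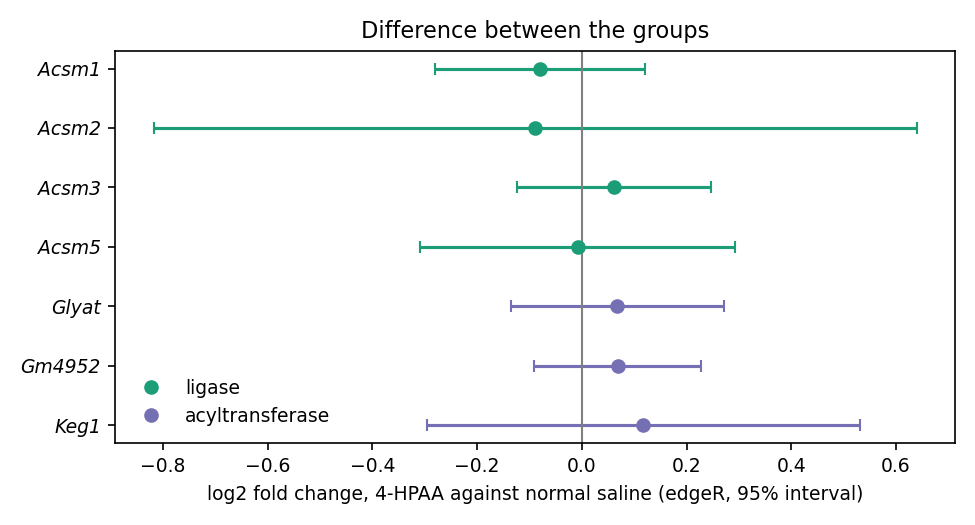
Log2 fold change of each gene, 4-HPAA against normal saline, from edgeR over 8 livers. Points are estimates and bars 95% intervals, which cross 0 for all 7 genes and are widest for Acsm2 (0.567 to 1.56 as a fold).

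For the 6 members other than Acsm2, the intervals ran from 0.807-fold at the lowest to 1.44-fold at the highest, so a doubling or halving of any of them lies outside its interval. Over the 8 livers the coefficient of variation was 5.62% for Gm4952, 7.13% for Acsm3, 7.78% for Glyat, 7.93% for Acsm1, 13.9% for Acsm5, 18.0% for Keg1 and 32.8% for Acsm2, against a median of 12.2% over all genes tested.

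The make-up of each step was compared within each liver, which does not depend on scaling between libraries. Of the summed ligase TPM, Acsm1 held 60.6% ± 1.63 with normal saline and 59.1% ± 1.16 with 4-HPAA (exact permutation test, two-sided, p = 0.200). Acsm3 held 19.1% ± 1.74 and 20.2% ± 0.862 (exact permutation p = 0.371), Acsm5 held 20.1% ± 1.52 and 20.5% ± 1.79 (exact permutation p = 0.686), and Acsm2 held 0.158% ± 0.0581 and 0.167% ± 0.0762 (exact permutation p = 0.829). Acsm1 therefore held more than the other ligases together in every liver, from 57.5% to 62.1%.

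Of the summed acyltransferase TPM, Glyat held 52.3% ± 2.63 and 52.1% ± 0.901 (exact permutation p = 0.943), Keg1 held 32.5% ± 5.44 and 33.2% ± 1.02 (exact permutation p = 0.971), and Gm4952 held 15.2% ± 2.82 and 14.6% ± 0.972 (exact permutation p = 0.886). These shares, and the ratio below, count the short non-coding forms of Glyat, and values for coding forms alone are not given. Per base, the main coding form of Keg1 stood above that of Glyat, so Glyat is not shown to hold the largest share of coding forms. The saline group varied more, and its replicate 1 stood apart, since in it Keg1 held 24.5% and Gm4952 19.3%. The ratio of summed ligase to summed acyltransferase TPM was 1.29, 1.16, 1.00 and 0.989 in the saline livers and 1.04, 1.02, 0.998 and 0.913 in the 4-HPAA livers. Their means of 1.11 ± 0.144 and 0.993 ± 0.0565 differed by less than the saline SD but by more than the 4-HPAA SD. The groups were not distinguished (exact permutation test, two-sided, p = 0.257). Over these 8 values the adjusted p was 0.971 throughout, and 0.0286 is the smallest unadjusted p that 70 splits can give.

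Transcripts were examined next, because a gene sum can hide isoforms that move against each other. Of the 42 transcripts, 23 reached 10 counts in all libraries and were tested, 19 were not tested, and 3 of those were at 0 throughout. None of the 23 passed edgeR's test at an adjusted p under 0.05, as none of 25533 transcripts did (0.0%), and 1 had an unadjusted p under 0.05 (3.83% of all transcripts). DESeq2 passed 21 of 22046 transcripts (0.0953%), none of them of these genes. Of the 23, 14 had a log2 fold change above 0 and 9 below 0, where 50.6% of all were above 0, and none had groups that did not overlap (2.02% of all).

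The ligases differed in how many forms carried them. Acsm1 was 1 transcript, Acsm1-201, at 99.8% of the counts of its gene. Acsm3 was divided between the protein-coding forms Acsm3-201 (46.3%) and Acsm3-203 (43.6%), with log2 fold changes of 0.19 (SE 0.12) and -0.06 (SE 0.12). Acsm5 was carried by Acsm5-201 (53.3%), Acsm5-205 (19.7%) and Acsm5-202 (21.9%), the last annotated as a target of nonsense-mediated decay, the pathway that degrades transcripts with a premature stop. Their log2 fold changes were 0.04 (SE 0.14), 0.01 (SE 0.16) and -0.08 (SE 0.18). Acsm2 was mostly Acsm2-207 (85.8%), at a log2 fold change of -0.07 (SE 0.32). Acsm2-202 held 12.7% and was not tested because it was at 0 in 4-HPAA replicate 4. Of the 7494 different 31-base words of Acsm2, 85 also occur in other genes (2590 genes). In Acsm2-207 the shared part was 1.28% of its words, and its weight in these low counts was not tested.

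Among the acyltransferases, the coding forms Glyat-201 (72.7%) and Glyat-202 (7.80%) had log2 fold changes of 0.07 (SE 0.10) and -0.08 (SE 0.17). The processed transcript Glyat-203 (13.8%) and the retained-intron form Glyat-205 (5.16%), neither of which is annotated to encode the enzyme, had values of 0.16 (SE 0.12) and 0.26 (SE 0.12). Gm4952 was carried by Gm4952-201 (80.6%) and Gm4952-202 (19.4%), at 0.07 (SE 0.08) and 0.12 (SE 0.18). Keg1-201 held 90.7% of Keg1 at 0.08 (SE 0.19), and the retained-intron form Keg1-202 held 5.75% at 0.63 (SE 0.33). The 1 transcript with an unadjusted edgeR p under 0.05 was a further retained-intron form, Keg1-203, at 1.31% of the gene and a log2 fold change of 1.00 (SE 0.38, unadjusted p = 0.0262, adjusted p = 1.00). It held 0.771%, 1.14%, 0.643% and 1.14% of the gene in the saline livers and 1.497%, 0.890%, 2.46% and 1.98% in the 4-HPAA livers, so the groups overlapped.

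By estimated counts, forms not annotated as coding together held 21.2% to 26.6% of Acsm5 and 16.1% to 21.7% of Glyat. They held 3.60% to 11.3% of Keg1 and 2.25% to 3.93% of Acsm3, and the groups overlapped in each gene. Acsm1 and Gm4952 have no such transcript in the table. The short non-coding forms of Glyat weigh more in TPM than in these counts.

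**Figure D3:**
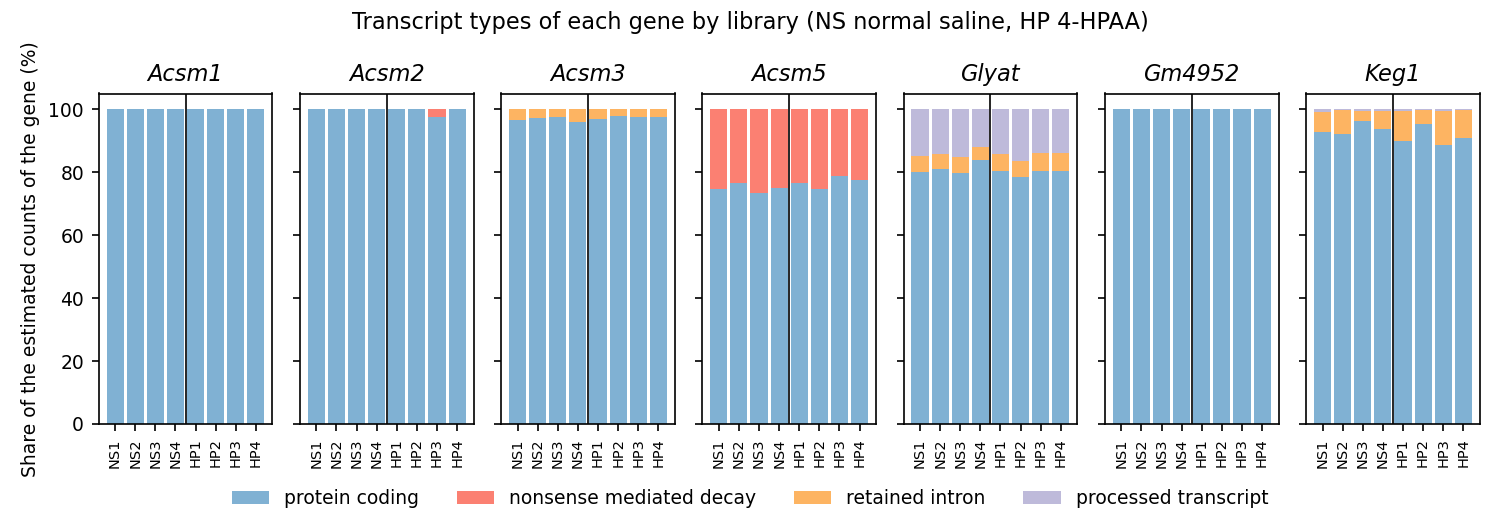
Share of the estimated counts of each gene (%) by annotated transcript type, 1 bar per liver, normal saline (NS) left of the line and 4-HPAA (HP) right of it. Nonsense-mediated decay forms hold 21.2% to 26.6% of Acsm5, and processed and retained-intron forms hold 16.1% to 21.7% of Glyat, at like heights on both sides.

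Some neighbours bear on how reads were assigned. The library kit keeps strand, while kallisto, the program that assigned the reads, was run at its default parameters per the methods of the study, with no strand option named. Acsm3 overlaps Eri2, an exonuclease gene on the opposite strand, over 1962 of its 4936 exon bases, and 1803 of its 4952 31-base words also occur in Eri2 when both strands are counted. Eri2 was low, at 9.41 ± 0.472 CPM in saline livers and 9.46 ± 1.09 CPM in 4-HPAA livers, with a log2 fold change of 0.01 (SE 0.10). Acsm5 overlaps Pdilt, an opposite-strand gene of testis, over 104 exon bases, and Pdilt stood between 4.72 and 9.55 CPM. The antisense gene Gm15962 covers 491 exon bases of Keg1. Acsm4, the remaining ligase of the cluster, held 0 to 1 counts per library.

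The 7 genes were not shown to rise and fall as 1 block between livers, which 8 livers cannot exclude. Of the 21 pairs, 19 had a positive Pearson r of log2 CPM over the 8 livers and 2 a negative one, with a median of 0.244, and 0 passed an adjusted p under 0.05 by r or by rho. The closest pair was Glyat and Keg1 (r = 0.917, exact permutation p = 0.0241, adjusted p = 0.127; rho = 0.619, exact permutation p = 0.115, adjusted p = 0.556). Without the 2 livers farthest from the Glyat median r was 0.303, so the relation rested on those livers, normal saline replicate 1 among them. As deviations from the group means of all 8 livers, normal saline replicate 1 included, the same pair gave r = 0.909 with an adjusted permutation p of 0.0203. Such deviations sum to 0 within each group and are not freely exchangeable, so this p is only approximate.

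Acsm2 and Acsm5 gave r = 0.847 (exact permutation p = 0.00548, adjusted p = 0.115) and rho = 0.762 (exact permutation p = 0.0368, adjusted p = 0.321). Their r was 0.520 without the 2 livers farthest from the Acsm2 median. Acsm3 and Gm4952, on different chromosomes, gave r = 0.798 (exact permutation p = 0.0185, adjusted p = 0.127) and rho = 0.738 (exact permutation p = 0.0458, adjusted p = 0.321). Their r was 0.962 without the 2 livers farthest from the Acsm3 median. Acsm1 and Acsm5 gave r = 0.772 (exact permutation p = 0.0230, adjusted p = 0.127) and rho = 0.833 (exact permutation p = 0.0154, adjusted p = 0.321). Their r was 0.638 without the 2 livers farthest from the Acsm1 median. The livers left out were picked by 1 gene of each pair, so they can differ between pairs. All points share the same libraries and scaling. Gm4952 gave r = 0.0444 (exact permutation p = 0.930) and rho = 0.262 (exact permutation p = 0.536) with Glyat. This r was 0.479 without the 2 livers farthest from the Glyat median, above the 0.303 of Glyat and Keg1. With Keg1, Gm4952 gave r = -0.217 (exact permutation p = 0.680) and rho = -0.0952 (exact permutation p = 0.840). This r was -0.364 without the 2 livers farthest from the Gm4952 median.

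**Figure D4:**
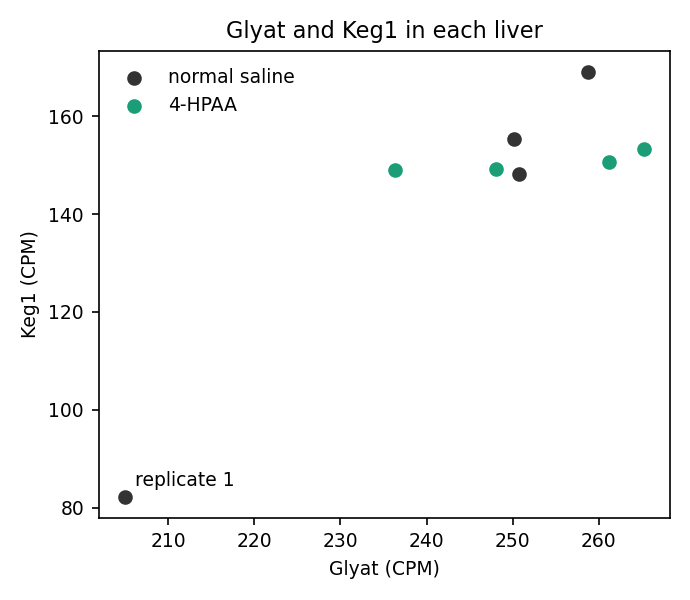
Keg1 (CPM) against Glyat (CPM), 1 point per liver. Normal saline replicate 1 sits at 204.9 CPM Glyat and 82.3 CPM Keg1, below the other 7 livers in both genes, which lie between 236.4 and 265.2 CPM Glyat and between 148.2 and 169.0 CPM Keg1.

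Of all other genes tested, those most like Glyat over the 8 livers, by Pearson r of log2 CPM, were Cars2, the mitochondrial cysteinyl-tRNA synthetase (r = 0.942, rho = 0.976), Ugt2b35, a UDP-glucuronosyltransferase (0.939 and 0.714), and Pgrmc1, a heme-binding membrane protein (0.939 and 0.881). Each was lowest in normal saline replicate 1, as Glyat was, at 8.34 CPM for Cars2, 93.1 CPM for Ugt2b35 and 876 CPM for Pgrmc1. Those most like Acsm1 were C3ar1, the complement C3a receptor of myeloid cells (r = 0.973, rho = 0.976), Alpk1, a kinase of innate immune sensing (0.956 and 0.952), and Cog1, a subunit of a Golgi tethering complex (0.947 and 0.905). These are the highest values out of 12876 genes over only 8 livers and are given as a description.

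Of the marker lists, the summed macrophage markers had the highest r with Acsm1 (0.819) and the cholangiocyte markers the lowest (-0.619). The macrophage list is thus picked out as the highest of several, and is given as a description. The 6 markers of Kupffer cells and other macrophages, all at 1 CPM or more, summed to 68.9, 187, 122 and 60.0 CPM in the saline livers and to 114, 151, 82.0 and 54.1 CPM in the 4-HPAA livers. Normal saline replicate 2 was highest in these summed markers, in Acsm1 and in Acsm5, and 4-HPAA replicate 4 was lowest in all 3. For Acsm1 it was lowest only by 311.8 against 312.0 CPM in 4-HPAA replicate 3. Marco, 1 of the 6 markers, was instead lowest in 4-HPAA replicate 1 (1.96 CPM). Summed endothelial markers were also lowest in 4-HPAA replicate 4 (87.8 CPM) but highest in 4-HPAA replicate 2 (146 CPM). The part of macrophages in the Acsm1 and Acsm5 values was not tested.

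Genes on either side of the 2 steps were read from lists of 90 genes, of which 79 were tested. None passed edgeR's test at an adjusted p under 0.05 (0.0% of all genes), 1 had an unadjusted p under 0.05 (1.75% of all genes), none had groups that did not overlap (1.2% of all genes), and 40 were above and 39 below 0 in log2 fold change, with a median of 0.004 against 0.001 over all genes tested. Among the other acyl-CoA synthetases, 3 of 12 tested genes were above 0 and 9 below (median -0.03), from Slc27a2, a very-long-chain synthetase, at 0.09 (SE 0.10) to Acss2, the cytosolic acetyl-CoA synthetase, at -0.11 (SE 0.16). Among the other N-acyltransferases, 3 of 9 were above 0 and 6 below (median -0.02), from Nat8, which acetylates cysteine conjugates, at 0.21 (SE 0.24) to Acnat2, a peroxisomal enzyme, at -0.51 (SE 0.38). Glyatl3, the remaining Glyat-like gene, was not tested.

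Coenzyme A, the cofactor of the first step, is built by the pantothenate kinases and broken down by Nudix hydrolases and pantetheinases. Of the 15 genes for its synthesis and breakdown, 12 were above 0 and 3 below (median 0.07), from the pantetheinase Vnn1 at 0.18 (SE 0.14) to the pantothenate carrier Slc5a6 at -0.11 (SE 0.18). Glycine, the second substrate, is made by serine hydroxymethyltransferases and by Agxt and is cleaved in mitochondria. Of 16 tested genes for its supply and cleavage, 7 were above 0 and 9 below (median -0.02), from the glycine transporter Slc6a9 at 0.08 (SE 0.11) to Agxt at -0.11 (SE 0.29).

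Acyl-CoA thioesterases hydrolyse acyl-CoA esters, the kind of compound that the acyltransferases use. Whether the listed ones act on aromatic acyl-CoA was not tested. Of the 13 genes listed, Hint1 among them although not named as a thioesterase, 6 were above 0 and 7 below (median -0.02). Acot8, a peroxisomal thioesterase, was the 1 listed gene with an unadjusted edgeR p under 0.05. It read 12.4, 14.2, 14.4 and 12.4 CPM with normal saline and 15.5, 14.2, 17.4 and 15.9 CPM with 4-HPAA, and the groups overlapped by a single 4-HPAA liver. Its log2 fold change was 0.24 (SE 0.09, unadjusted p = 0.0275, adjusted p = 1.00). At the other end stood Acot3 at -0.39 (SE 0.38), which was 0.04 without normal saline replicate 1.

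Taurine competes with glycine for amidation of some acids. Of 5 genes for its synthesis and uptake, 2 were above 0 and 3 below (median -0.10), from the transporter Slc6a6 at 0.06 (SE 0.12) to Csad, which decarboxylates cysteine sulfinate, at -0.36 (SE 0.28). Medium-chain fatty acids share the ligases, and of 9 genes of their mitochondrial oxidation 7 were above 0 and 2 below (median 0.04), from Etfdh, which passes electrons to ubiquinone, at 0.08 (SE 0.07) to Hadh at -0.02 (SE 0.08).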

How the data were processed

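Liver RNA of 8 mice was sequenced, 4 per group. The authors ran kallisto and deposited an estimated count (expected count) per transcript and mouse, not normalized and not pooled. Per the labels, the build is GRCm38.p6, and 9.85% of values above 0 were whole numbers. From there, counts were summed per gene by GENCODE M21 (116728 of 119414 transcripts matched, the rest holding 0.703% to 1.06% of counts) and rounded. The main test was the quasi-likelihood F test of edgeR 4.0.16 (R 4.3.3) with TMM factors, on genes or transcripts that reached 10 counts in all libraries, at a threshold of 0.05 on Benjamini-Hochberg adjusted p-values. Standard errors were taken from the log2 fold change and its F statistic. CPM use TMM factors and TPM use annotated, not effective, transcript lengths, which gives short forms lower values than effective lengths would. Log2 CPM used a prior count of 2.

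The alternatives comprised limma-voom (limma 3.58.1), DESeq2 1.42.0, scaling by RLE or by total counts, other filters, coding transcripts only, each library left out, and the replicate number as a block. Members other than Acsm2 held 1705 counts or more in every library, and Acsm2 held 30 to 91. Steps were tested on simulated data. Members, lists and markers were chosen with earlier results of these data known. Genes named are the members, their transcripts at 5% or more of a gene, the ends of each list and any listed gene or member transcript with an unadjusted p under 0.05, the 3 genes most like Glyat and Acsm1, and neighbours. Zfp36l2, Ggnbp1 and CAAA01147332.1 were named after their values were seen. The labels do not say whether same-numbered mice were treated together.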

Additional observations from a re-analysis of the deposited data

Results flagged for a closer look

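In 6 of 110 groups of 4 livers examined, the highest or lowest liver stood apart from the other 3 by more than Dixon's 95% critical value (the gap to the nearest liver as a share of the range of the group), where chance gives about 1 in 20 groups (5.5 of 110). Without the genes chosen for their likeness to Glyat or Acsm1 these were 5 of 98 groups, against 4.9 by chance. Glyat was 204.9 CPM in normal saline replicate 1, against 250.2 to 258.8 CPM in the other saline livers. In the same liver Slc6a6, the taurine transporter, was 85.1 CPM against 101.2 to 104.1 CPM, and Cars2 was 8.34 CPM against 9.91 to 10.1 CPM. Cars2 was picked for its likeness to Glyat over these livers, so its low value in this liver is not independent of that choice. Eri2, which overlaps Acsm3, was 8.71 CPM in normal saline replicate 2, against 9.58 to 9.74 CPM. The short form Gm4952-202 held 283.7 estimated counts in normal saline replicate 4, against 376.2 to 379.9. Acsm3 held 21.5% of the summed ligase TPM in 4-HPAA replicate 4, against 19.7% to 19.9% in the other 4-HPAA livers. No cause was tested for any of them.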

How the results depend on the processing

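No member gene, member transcript or listed gene passed an adjusted p under 0.05 under any alternative run. Over all genes, DESeq2 passed 2 and edgeR without 4-HPAA replicate 1 passed 1 (CAAA01147332.1), so the count ranged from 0 to 1 with single libraries left out. The same-numbered livers deviated from their group means with correlations of 0.0398, 0.168, 0.268 and 0.480, averaging 0.239 (-0.0783 between livers of different number), and 4 of 8 libraries were closest to their own number. Since 1 of the 4 pairs was not above 0.1 and the labels name no shared batch, the numbers were not taken to pair the mice, although the mean leans towards pairing. A fit with the replicate block passed 0 genes and 0 members, left 336 genes at an unadjusted p under 0.05 against 225 without the block, and changed no other call, while the sign of Acsm5-205 turned (-0.011), as it did with limma-voom (-0.013).

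Directions of values that passed no test turned as follows, and the cause was not tested. Without normal saline replicate 2 and 4-HPAA replicate 4 together (the libraries with most globin, chosen after seeing the data), log2 fold changes became 0.34 for Acsm2, 0.15 for Acsm5, 0.026 for Acss2, 0.0037 for Slc5a6, 0.15 for C3ar1, 0.18 for Alpk1, 0.0080 for Cog1 and 0.034 for Pdilt, and the difference in the share of Acsm3 became -0.112 percentage points. With coding transcripts only they became 0.018 for Acsm5, -0.00081 for Pgrmc1 and -0.22 for Rexo5. From counts in place of TPM, the difference in the share of Acsm2 became -0.011 percentage points. As deviations from group means, 1 pair of members (Glyat and Keg1) passed by its approximate permutation p, against 0.

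With each library left out in turn, log2 fold changes ranged from -0.28 to 0.13 for Acsm2, -0.084 to 0.071 for Acsm5, -0.0030 to 0.10 for Glyat, -0.066 to 0.23 for Keg1, -0.22 to 0.019 for Slc5a6, -0.39 to 0.22 for Agxt, -0.62 to 0.041 for Acot3, -0.0053 to 0.14 for Slc6a6, -0.055 to 0.031 for Hadh, -0.019 to 0.24 for Ugt2b35, -0.054 to 0.041 for Pgrmc1, -0.57 to 0.0040 for C3ar1, -0.33 to 0.072 for Alpk1, -0.16 to 0.017 for Cntf, -0.24 to 0.10 for Pdilt, -0.035 to 0.078 for Eri2, -0.030 to 0.18 for Rexo5, -0.25 to 0.19 for Acsm2-207, -0.12 to 0.032 for Acsm3-203, -0.056 to 0.16 for Acsm5-201, -0.21 to 0.020 for Acsm5-202, -0.12 to 0.11 for Acsm5-205, -0.0071 to 0.11 for Glyat-201, -0.025 to 0.21 for Gm4952-202 and -0.11 to 0.20 for Keg1-201. Differences in share ranged from -0.0158 to 0.0437 percentage points for Acsm2, -0.244 to 1.27 for Acsm5, -0.853 to 1.06 for Glyat, -1.12 to 0.854 for Gm4952 and -1.92 to 1.97 for Keg1. Acsm2 had the fewest counts of the members, 30 to 91 per library (mean 62.6, SD 20.5 over 8 libraries).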
